A study of Mus musculus with 6 samples.

Results

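The imprinted genes of the Prader-Willi region, Snrpn, Ndn, Magel2, Mkrn3, Peg12 and Ube3a, were followed in 3 lines of mouse embryonic stem cells that had been derived by chromosome transfer. A gene was taken where a probe set of the array carried its symbol and no other, and where several did, the brightest of them on average over the 6 arrays was used. Of the 6 genes named, 4 met this rule, Ndn, Magel2, Mkrn3 and Peg12, each with 1 probe set, among 19938 genes measured in all. Snrpn and Ube3a were represented by probe sets annotated to several genes, so no level is given for either gene.

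The lines were ZM-1, ♂M-1 and ♂M-3, and each was represented by 2 biological repeats on whole-transcript arrays. What the prefixes ♂M and ZM stand for is not explained in the labels, which also give no strain, sex or passage. All 3 lines were embryonic stem cells grown on gelatin with LIF and 2 inhibitors, PD0325901 against MEK and CHIR99021 against GSK3β. Each line is a single line and ZM-1 is the only one of its prefix, so a difference between prefixes and one between lines cannot be told apart, and the p-values reflect the variation between repeats of a line and nothing wider. The study asked how the parental pronuclei of the zygote differ in reprogramming capacity, and its design compared expression between these lines.

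Imprinted genes are expressed from 1 parental copy, chosen by DNA methylation that was laid down in the egg or the sperm. In the Prader-Willi region the paternal copy of Snrpn, Ndn, Magel2, Mkrn3 and Peg12 is active and the maternal copy is silent, under the control of an imprinting centre at the start of Snrpn. Ube3a is expressed from both copies in most cells and from the maternal copy in neurons. In humans, loss of the paternally expressed genes causes Prader-Willi syndrome, and loss of maternal UBE3A causes Angelman syndrome. The arrays measured the summed RNA of both parental copies, so the parental origin of the transcripts was not measured, and neither was DNA methylation.

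The 4 measured genes are consecutive among the protein-coding genes of mouse chromosome 7 in the RefSeq order of GRCm38.p6. Their promoters are shown because the genes share 1 imprinting centre but start separately. The 250 bases before each annotated start were taken from RefSeq on GRCm38.p6, with CpG dinucleotides, the sites of DNA methylation, in capitals. These stretches lie at chr7:62348027-62348276 on the plus strand for Ndn, chr7:62376729-62376978 on the plus strand for Magel2, chr7:62420154-62420403 on the minus strand for Mkrn3 and chr7:62464511-62464760 on the minus strand for Peg12.
Ndn: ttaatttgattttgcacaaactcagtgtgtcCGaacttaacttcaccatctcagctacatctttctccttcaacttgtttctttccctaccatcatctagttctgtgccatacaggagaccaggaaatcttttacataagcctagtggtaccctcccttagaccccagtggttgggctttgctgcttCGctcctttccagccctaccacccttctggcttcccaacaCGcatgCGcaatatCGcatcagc
Magel2: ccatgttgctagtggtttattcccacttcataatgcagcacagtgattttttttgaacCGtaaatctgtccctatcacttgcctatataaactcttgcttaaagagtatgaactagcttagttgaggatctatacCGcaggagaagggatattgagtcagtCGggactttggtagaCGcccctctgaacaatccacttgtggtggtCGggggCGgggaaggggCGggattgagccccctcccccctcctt
Mkrn3: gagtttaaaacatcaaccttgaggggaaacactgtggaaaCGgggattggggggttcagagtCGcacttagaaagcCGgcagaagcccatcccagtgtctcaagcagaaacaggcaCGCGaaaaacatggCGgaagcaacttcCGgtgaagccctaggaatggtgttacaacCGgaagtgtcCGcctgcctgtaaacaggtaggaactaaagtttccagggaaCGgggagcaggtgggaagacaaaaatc
Peg12: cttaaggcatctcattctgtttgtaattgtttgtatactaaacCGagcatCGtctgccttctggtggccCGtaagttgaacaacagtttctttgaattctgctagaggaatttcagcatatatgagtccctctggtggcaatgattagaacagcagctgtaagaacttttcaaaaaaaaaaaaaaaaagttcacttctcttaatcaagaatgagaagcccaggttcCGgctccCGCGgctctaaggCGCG

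The stretches held 5 CpGs in Ndn, 7 in Magel2, 10 in Mkrn3 and 8 in Peg12, against a median of 6 over 32807 mouse promoter stretches of the same length. Their G and C content was 47.2% in Ndn, 48.8% in Magel2, 52.0% in Mkrn3 and 42.0% in Peg12, against a median of 52.4%. The letters CGCATGCG, the centre of the element bound by the transcription factor NRF1 and the same on both strands, occurred 1 time in Ndn, beginning 23 bases before the start. They occurred in 1.54% of all stretches and in none of the other 3 genes. The letters CCGGAAGT, a site of ETS family factors searched on both strands, occurred 2 times in Mkrn3, 112 and 79 bases before the start, and in 2.88% of all stretches. The GC box GGGCGG, searched on both strands, occurred 2 times in Magel2 and in 32.7% of all stretches. Magel2 also held TATAAA, 165 bases before the start, as did 12.4% of all stretches on either strand. The letters CCAAT occurred 1 time in Mkrn3 and in 33.8% of all stretches, on either strand. Of these 5 motifs, Peg12 held none, and the matches are descriptions of letters, not measured sites. The motifs were chosen after these promoters were read, so the shares over all stretches do not measure how unusual a match is.

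Ndn encodes necdin, a MAGE domain protein that restrains cell proliferation and is abundant in neurons. Its intensity, in the linear units of the deposited values, was 142 and 172 in the repeats of ♂M-1, 118 and 107 in those of ♂M-3, and 121 and 106 in those of ZM-1. Both ♂M-1 arrays lay above the 4 arrays of the other lines, while ♂M-3 and ZM-1 overlapped. The means were 114 ± 10.6 (SD, n = 2) in ZM-1, 157 ± 21.6 in ♂M-1 and 112 ± 7.24 in ♂M-3. Ndn was 1.39-fold higher in ♂M-1 than in ♂M-3, a log2 difference of 0.47 with a 95% interval of 0.22 to 0.72 (limma, adjusted p = 0.0379). The ratio to ZM-1 was 1.37, with a log2 difference of 0.46 (interval 0.21 to 0.71) that missed the threshold of 0.05 (adjusted p = 0.0554). Between ♂M-3 and ZM-1 the log2 difference was −0.017 (interval −0.27 to 0.23, adjusted p = 0.939). By their means the order was ♂M-1, then ZM-1 and ♂M-3, and only the difference between the ♂M lines passed the test. The lower pair did not differ beyond the spread of repeats.

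The repeats of ♂M-1 themselves differed for Ndn by 0.28 log2 units, more than in 94.5% of all genes of that line. Without ♂M-1 replicate 2, the difference from ♂M-3 was 0.33 and no longer called (adjusted p = 0.262). The call was also lost without ♂M-3 replicate 1 (0.104) or replicate 2 (0.223), with the log2 difference between 0.33 and 0.61 whichever array was left out. Conversely, the difference of Ndn from ZM-1 was called in 5 of 16 alternatives, among them median centring of the arrays (log2 difference 0.49, adjusted p = 0.0395) and a limit to genes above the 50th percentile (adjusted p = 0.0186).

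**Figure D1:**
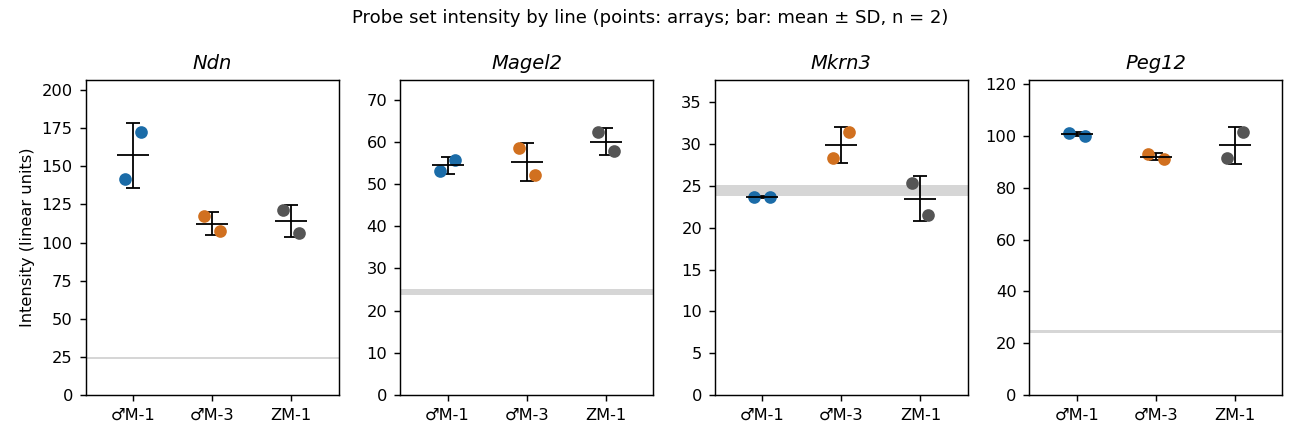
Intensity of the 4 genes in linear units, 1 panel per gene with its own axis from 0, by line; points are arrays, the bars show the mean ± SD (n = 2) and the grey band is the lower quartile of the 6 arrays, 23.8 to 25.1. Both ♂M-1 arrays of Ndn (142 and 172) lie above all other Ndn arrays, and Mkrn3 lies at the band in ♂M-1 and ZM-1.

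Magel2 is a second MAGE domain gene beside Ndn; its protein acts with the ubiquitin ligase TRIM27 and the WASH complex in sorting proteins from endosomes. Its intensity was 62.3 and 57.8 in ZM-1, 53.1 and 55.8 in ♂M-1, and 58.5 and 52.1 in ♂M-3. The ♂M-1 arrays lay below both ZM-1 arrays, and ♂M-3 overlapped with each of the other lines. The log2 difference was −0.14 for ♂M-1 against ZM-1 (interval −0.34 to 0.057, adjusted p = 0.423), −0.12 for ♂M-3 against ZM-1 (interval −0.31 to 0.077, adjusted p = 0.407) and −0.020 for ♂M-1 against ♂M-3 (interval −0.22 to 0.18, adjusted p = 0.939). No pair passed the test, and the lowest bound of the 3 intervals was −0.34.

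Mkrn3 encodes a RING finger ubiquitin ligase of the makorin family, known as a brake on the onset of puberty. Its intensity was 25.4 and 21.6 in ZM-1, 23.7 and 23.6 in ♂M-1, and 28.4 and 31.4 in ♂M-3. Both ♂M-3 arrays were higher than the other 4. The lower quartile of all probe sets lay between 23.8 and 25.1 in the 6 arrays, so in ♂M-1 and ZM-1 Mkrn3 was at that lower quartile, and background levels were not used here. The log2 difference was 0.34 for ♂M-3 against ZM-1 (interval 0.13 to 0.55), which passed the test (adjusted p = 0.0412). It was −0.32 for ♂M-1 against ♂M-3 (interval −0.54 to −0.11, adjusted p = 0.0875) and 0.017 for ♂M-1 against ZM-1 (interval −0.20 to 0.23, adjusted p = 0.945). Of 14 alternatives in which Mkrn3 could be tested against ZM-1, 5 kept the call, and the adjusted p ran from 0.0211 to 0.229. It was lost without ♂M-3 replicate 1 (log2 difference 0.41) or 2 (0.27) and without ZM-1 replicate 2 (0.23). With a pseudocount of 16 the difference was 0.22 (adjusted p = 0.0567), and with all probe sets in the fit or only the 2 lines compared the adjusted p was 0.117 and 0.0686. Leaving out either ♂M-1 array gave the same fit as only the 2 lines compared, so these are not separate losses.

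Peg12, also called Frat3, belongs to the FRAT family of proteins that bind GSK3, the kinase that the culture medium inhibited. Its intensity was 91.4 and 101 in ZM-1, 101 and 100.2 in ♂M-1, and 93.0 and 91.0 in ♂M-3. The ♂M-1 arrays lay above those of ♂M-3, and the ZM-1 arrays overlapped with both other lines. The log2 difference was 0.065 for ♂M-1 against ZM-1 (interval −0.12 to 0.25, adjusted p = 0.710), −0.066 for ♂M-3 against ZM-1 (interval −0.25 to 0.12, adjusted p = 0.640) and 0.13 for ♂M-1 against ♂M-3 (interval −0.050 to 0.31, adjusted p = 0.435). All 3 intervals of Peg12 included 0.

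**Figure D2:**
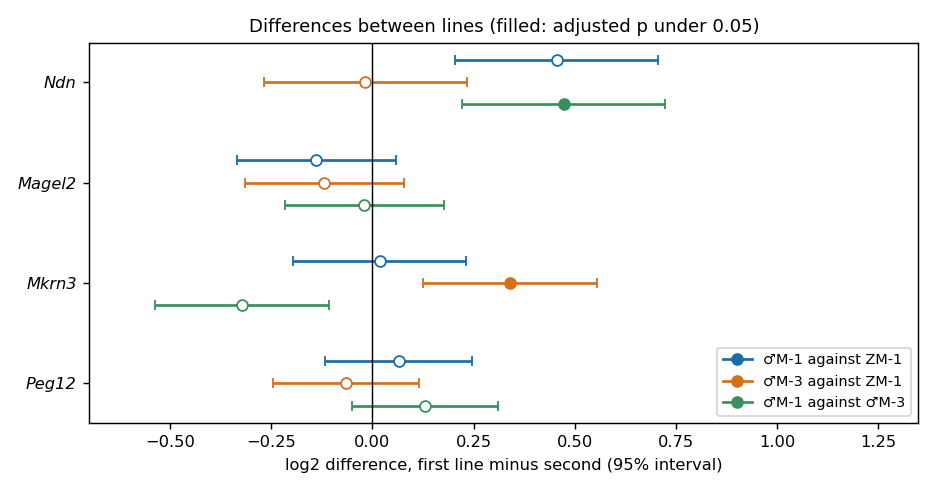
The log2 difference of each gene between each pair of lines, first line minus second, with 95% intervals from limma; filled points passed an adjusted p of 0.05. Filled points are Ndn in ♂M-1 against ♂M-3 (0.47) and Mkrn3 in ♂M-3 against ZM-1 (0.34), and all intervals of Magel2 and Peg12 include 0.

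Set against all genes, ♂M-1 and ZM-1 differed by limma in 0 of the 4 genes, and 1 of the 4, Ndn, had an unadjusted p under 0.05. In that pair 4.42% of all genes were called, 1.90% higher and 2.53% lower in ♂M-1. For ♂M-3 beside ZM-1, 1 of the 4 was called, in the higher direction, where 15.9% of all genes were called, 8.66% higher and 7.2% lower in ♂M-3. For the pair of ♂M lines, 1 of the 4 was called, higher in ♂M-1, where 6.54% of all genes were called, 3.22% higher and 3.32% lower in ♂M-1. At least 1 call among the 3 pairs was made for 2 of the 4 genes and for 18.5% of all genes. The pairs share lines, so these counts are not independent, and with 4 genes they are a description only.

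Arrays without overlap were common in this design. For ♂M-1 beside ZM-1 they were found in 2 of the 4 genes, 1 in each direction, and in 48.9% of all genes, 23.0% higher and 25.9% lower in ♂M-1. For ♂M-3 beside ZM-1 they were found in 1 of the 4, higher, and in 57.5% of all genes, 30.1% higher and 27.4% lower in ♂M-3. Between the ♂M lines they were found in 3 of the 4, with 2 higher and 1 lower in ♂M-1, and in 50.5% of all genes, 21.6% higher and 28.9% lower. The median log2 difference of the 4 genes from ZM-1 was 0.041 in ♂M-1 and −0.042 in ♂M-3, beside −0.0083 and 0.0021 for all genes. Between the ♂M lines it was 0.055, beside −0.017. The 4 genes did not share a sign in any pair: in ♂M-1, Ndn had a log2 difference of 0.46 from ZM-1 beside −0.14 in Magel2, and in ♂M-3, Mkrn3 had 0.34 beside −0.017 in Ndn.

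The measured protein-coding genes on either side were compared in the same fit, 8 before Ndn and 8 after Peg12. Among the 8 before it, from Tubgcp5 to Atp10a, limma called 0 in either direction between ♂M-1 and ZM-1, and 1, Nipa1, had an unadjusted p under 0.05. In ♂M-3 against ZM-1, Gabrg3, a GABA-A receptor subunit, was higher (45.4 ± 2.03 against 34.3 ± 1.79, SD, n = 2, adjusted p = 0.0104). Atp10a, a phospholipid flippase, was lower in the same pair (81.4 ± 1.99 against 104 ± 1.51, SD, n = 2, adjusted p = 0.0232). Gabrg3 was also the only 1 of these 8 called between the ♂M lines, lower in ♂M-1 by a log2 difference of −0.37 (adjusted p = 0.0249). Among the 8 genes after Peg12, limma called 0 between ♂M-1 and ZM-1, with 1 at an unadjusted p under 0.05, and 0 between the ♂M lines, with 2 at that level. In ♂M-3, 3 of these 8 were higher than in ZM-1, and these, named after their values were seen, were Klf13 (log2 difference 0.36), Trpm1 (0.33) and Mtmr10 (0.29). Together with Gabrg3, the 4 flanking genes called higher in ♂M-3 had log2 differences of 0.29 to 0.40, beside 0.34 for Mkrn3. These 4 were picked by the same threshold that Mkrn3 passed, which leaves out small differences. The likeness in size is therefore no separate result, and it was not tested. All flanking genes in this pair ran from −0.35 (Atp10a) to 0.40 (Gabrg3), and 8.66% of all genes were called higher in ♂M-3. Beside Gabrg3 and Atp10a, 4 further genes of the region are given whatever their test. Their log2 differences in ♂M-1 and ♂M-3 against ZM-1 were 0.24 and 0.16 for Nipa1, 0.052 and 0.011 for Nipa2, both magnesium transporters, −0.039 and 0.11 for Tubgcp5, a γ-tubulin complex subunit, and 0.14 and 0.24 for Herc2, a giant ubiquitin ligase. None of the 8 values of these 4 genes passed the test.

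**Figure D3:**
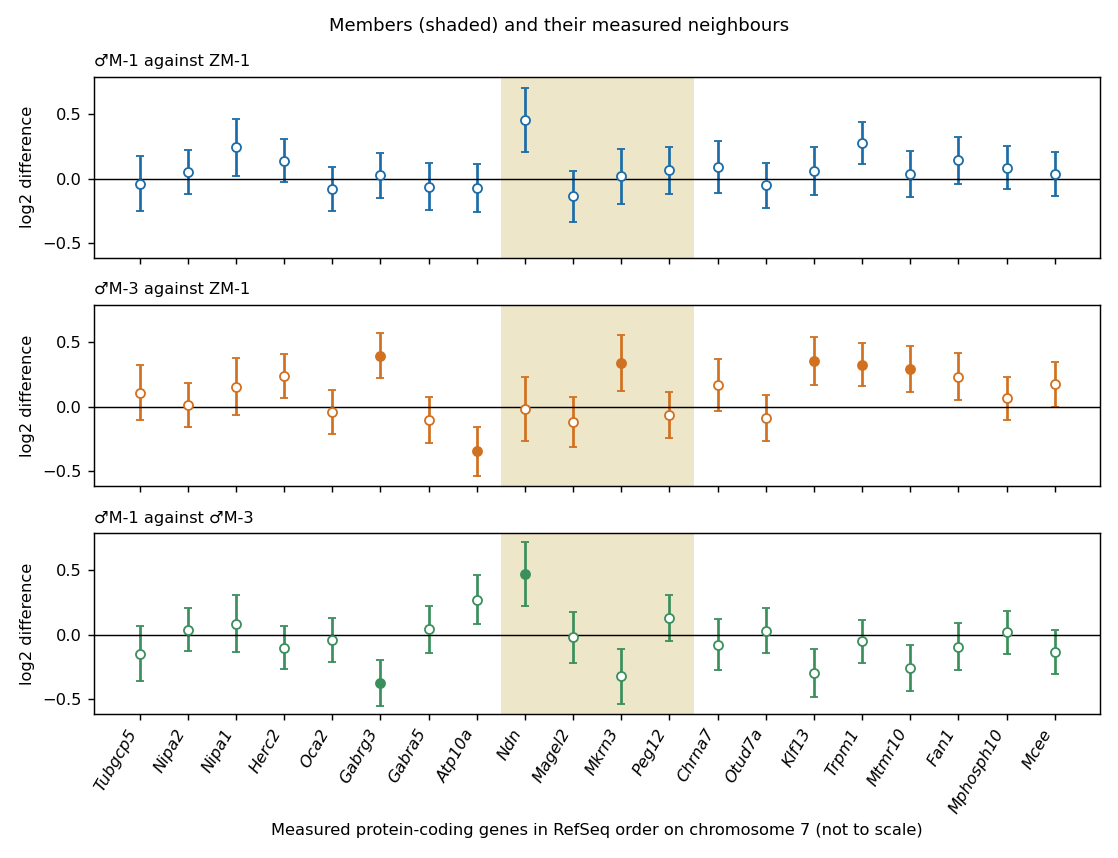
The log2 difference with its 95% interval for 20 genes in RefSeq order on chromosome 7, not to scale, for each pair of lines; the 4 shaded genes are Ndn, Magel2, Mkrn3 and Peg12, and filled points passed an adjusted p of 0.05. In ♂M-3 against ZM-1, Mkrn3 (0.34) is one of 5 filled points above 0, and Atp10a (−0.35) is the filled point below it.

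The genes whose pattern over the 6 arrays lay nearest to the called members were found by the root mean square difference of log2 values after centring each gene on its own mean. The 9962 candidates were limited to genes whose highest line mean was above the median level of all genes. Genes as dim as Mkrn3 were therefore not among them. For Ndn these were Crim1, a transmembrane protein with cysteine-rich repeats, at 0.026 log2 units, the tissue factor gene F3 at 0.060, and the orphan receptor gene Gpr176 at 0.061. Crim1 measured 180 ± 20.8 (SD, n = 2) in ZM-1, 247 ± 40.1 in ♂M-1 and 177 ± 6.74 in ♂M-3. For Mkrn3 the nearest were the small GTPase gene Ralb at 0.033, the ubiquitin ligase adaptor gene Klhl20 at 0.034 and Wrnip1, an ATPase of DNA replication, at 0.034. Klhl20 measured 356 ± 32.2 (SD, n = 2) in ZM-1, 343 ± 1.98 in ♂M-1 and 433 ± 20.2 in ♂M-3. Of these nearest genes, limma called F3 and Gpr176, both higher in ♂M-1 than in ♂M-3 (adjusted p = 0.0313 and 0.0331). They were chosen for their likeness to Ndn over the same 6 arrays. That choice set their direction, and their calls add no separate evidence about Ndn. Crim1, Ralb, Klhl20 and Wrnip1 were called in no pair. These distances include the deviations of single repeats as well as the differences between lines.

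Relatives and partners of the 4 proteins were measured beside them. Of 6 MAGE domain relatives, limma called 0 in ♂M-1 against ZM-1, with 1, Nsmce3, at an unadjusted p under 0.05. In the other pairs, 1 was higher in ♂M-3 than in ZM-1, and 1 was lower in ♂M-1 than in ♂M-3. Both calls were Mageh1, at 56.5 ± 1.14 (SD, n = 2) in ZM-1, 52.1 ± 5.39 in ♂M-1 and 71.2 ± 2.59 in ♂M-3. Nsmce3, the MAGE subunit of the SMC5-SMC6 complex, had log2 differences of −0.20 and −0.038 in ♂M-1 and ♂M-3 against ZM-1 and was not called, and Maged1 had 0.019 and 0.048. Of 10 genes for partners of MAGEL2 in the retromer and WASH complexes, 1 exceeded ZM-1 in ♂M-1 and 3 did so in ♂M-3, with 0 lower in either. Between the ♂M lines limma called 0 of them, with 1 at an unadjusted p under 0.05. Among all genes, 1.9% were called higher than ZM-1 in ♂M-1 and 8.66% in ♂M-3. Vps26a, a retromer subunit, was higher by 0.43 in ♂M-1 and 0.37 in ♂M-3 on the log2 scale, and Washc5 and Washc2 by 0.29 and 0.28 in ♂M-3. Trim27 and Usp7, the other members of that ubiquitin ligase, had log2 differences between −0.057 and 0.093 against ZM-1 and were not called.

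The makorin Mkrn1 went the other way from Mkrn3 in ♂M-3: it measured 752 ± 10.6 (SD, n = 2) in ZM-1, 709 ± 46.6 in ♂M-1 and 568 ± 18.4 in ♂M-3. It was lower in ♂M-3 than in ZM-1 by a log2 difference of −0.40 (adjusted p = 0.0104) and higher in ♂M-1 than in ♂M-3 (adjusted p = 0.0497). Mkrn2 had log2 differences of 0.059 and 0.17 in ♂M-1 and ♂M-3 against ZM-1, and the FRAT genes Frat1 (−0.12 and −0.097) and Frat2 (0.28 and 0.098) were not called either. For the proteins of Snrpn and Ube3a, the relatives alone could be given. Of 6 measured genes for the Sm ring, which binds the spliceosomal RNAs, 1 was called, Snrpe, higher in ♂M-3 than in ZM-1 by 0.59 (adjusted p = 0.0149), and Snrpb, whose protein SmN replaces in neurons, had log2 differences of 0.24 and 0.14. Of 6 genes for relatives and partners of the UBE3A ligase, limma called 0 in all 3 pairs, with 1 at an unadjusted p under 0.05 in ♂M-1 and 2 in ♂M-3 against ZM-1 and 0 between the ♂M lines. Its E2 enzyme gene Ube2l3 had log2 differences of 0.037 and −0.076 against ZM-1.

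Genes that act on DNA methylation and imprints were read as a list, which holds factors that keep methylation, that add it, and, in Tet1 and Tet2, that remove it. Of its 17 genes, ♂M-1 had 0 higher and 1 lower relative to ZM-1, and ♂M-3 had 1 higher and 4 lower. The shares over all genes were 1.9% higher and 2.53% lower in ♂M-1, and 8.66% and 7.2% in ♂M-3. Zfp57, a zinc finger protein that holds methylation at imprinting centres, measured 3448 and 3493 in ZM-1, 3166 and 3009 in ♂M-1, and 2880 and 2682 in ♂M-3. It was lower in ♂M-3 than in ZM-1 by a log2 difference of −0.32 (adjusted p = 0.0236), and the value for ♂M-1 was −0.17 (adjusted p = 0.267). The de novo methyltransferase Dnmt3a was lower than in ZM-1 in both, by −0.49 in ♂M-1 and −0.63 in ♂M-3. Dnmt3b was lower in ♂M-3 than in ZM-1 (−0.47) and higher in ♂M-1 than in ♂M-3 (0.70), and its cofactor Dnmt3l followed with −0.28 and 0.41. Dppa3, which protects methylation in the zygote, was higher in ♂M-3 than in ZM-1 (log2 difference 0.82, adjusted p = 0.00434) and had 0.55 in ♂M-1 (adjusted p = 0.0585). The maintenance methyltransferase gene Dnmt1 and the corepressor gene Trim28, which ZFP57 recruits, were called in no pair, with log2 differences against ZM-1 of 0.025 and −0.013 for Dnmt1 and of 0.12 and 0.16 for Trim28.

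Imprinted genes of other regions covered a wider range than the 4 genes here. A range widens with the number of genes, so this is a description only. Of 17 other paternally expressed genes, ♂M-1 had 5 higher and 1 lower relative to ZM-1, and ♂M-3 had 6 higher and 2 lower. Over all genes, 1.9% were called higher and 2.53% lower in ♂M-1, and 8.66% and 7.2% in ♂M-3. The log2 differences of the 17 genes against ZM-1 reached −1.26 in ♂M-1 for Nnat and 1.19 in ♂M-3 for Plagl1, whereas the largest among the 4 was 0.46. Sfmbt2, a Polycomb group gene, was higher in both (0.63 in ♂M-1 and 0.82 in ♂M-3), as was Mest (0.54 and 0.70), and the growth factor gene Igf2 was higher in ♂M-1 (0.49). Nnat was lower in ♂M-3 as well (−1.09). Between the ♂M lines, 1 was higher in ♂M-1, Peg10 (0.65), and 3 were lower, Inpp5f (−0.85), Plagl1 (−0.79) and Mcts2 (−0.55). Whether the lists differ was not tested. Of 16 other maternally expressed genes, ♂M-1 had 3 higher and 1 lower relative to ZM-1, and ♂M-3 had 1 higher and 2 lower, with Dcn, the gene for the matrix protein decorin, lowest in both (−1.42 and −2.44). The noncoding RNA gene Rian was higher in both (0.70 and 0.87), Phlda2 (0.55) and the noncoding RNA gene Meg3 (0.38) were higher in ♂M-1, and Zim1 was lower in ♂M-3 (−0.50). Between the ♂M lines, Dcn (1.02) and Phlda2 (0.42) were higher in ♂M-1 and Ascl2 was lower (−0.52).

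**Figure D4:**
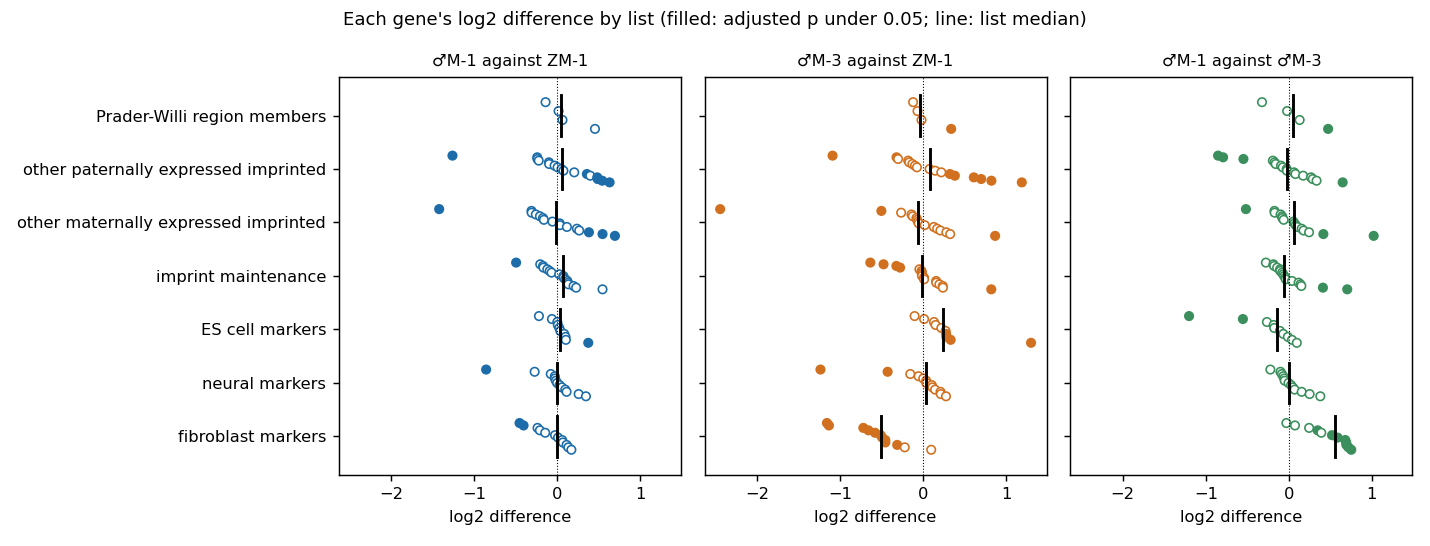
Each gene's log2 difference in each pair of lines for the 4 Prader-Willi region genes and 6 lists, all panels on 1 scale; filled points passed an adjusted p of 0.05 and the black line is the list's median. The fibroblast marker median is 0.55 in ♂M-1 against ♂M-3 and −0.50 in ♂M-3 against ZM-1, while the median of the 4 genes lies between −0.042 and 0.055.

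Markers of other cell types were read beside these results, since fewer cells of a type and less RNA per cell cannot be told apart in such samples. All 10 embryonic stem cell markers lay above the lower quartile in every array, with a summed intensity of 23820 to 27717. Of 12 fibroblast markers, 8 were higher and 0 lower in ♂M-1 than in ♂M-3, the pair in which Ndn was called, led by Twist2 (log2 difference 0.75), Postn (0.72), Prrx1 (0.69) and Col1a1 (0.69). Over all genes, 3.22% were higher and 3.32% lower in ♂M-1 in that pair. In the same pair, 0 of the 10 stem cell markers were higher and 2 lower in ♂M-1, Zfp42 (−1.20) and Tfcp2l1 (−0.55), with a median of −0.14 over the 10. The summed intensity of the fibroblast markers was 8941 and 8792 in ZM-1, 9326 and 8817 in ♂M-1, and 8154 and 7602 in ♂M-3. Fn1, the fibronectin gene, which was called in no pair, gave 5097 to 5718 of each sum. The other 11 summed to 3788 and 3695 in ZM-1, 3821 and 3565 in ♂M-1, and 2437 and 2331 in ♂M-3. Of the 12, 11 lay above the lower quartile in every array, the other being Lum. Against ZM-1, the fibroblast markers had 0 higher and 2 lower in ♂M-1, Mmp2 (−0.45) and Twist2 (−0.40), with a median of −0.0068 beside 0.46 for Ndn. They had 0 higher and 10 lower in ♂M-3, led by Twist2 (−1.16), Mmp2 (−1.13), Prrx1 (−0.72) and Postn (−0.66), with a median of −0.50 beside −0.017 for Ndn. The shares of all genes against ZM-1 were 1.9% higher and 2.53% lower in ♂M-1, and 8.66% and 7.2% in ♂M-3. In ♂M-3 against ZM-1, the pair in which Mkrn3 was called, 4 of the 10 stem cell markers were higher and 0 lower, Zfp42 (log2 difference 1.30), Tfcp2l1 (0.33), Nanog (0.28) and Utf1 (0.28), and in ♂M-1 Utf1 was higher than in ZM-1 (0.38). Of 13 measured neural markers, limma called 0 between the ♂M lines, with 3 at an unadjusted p under 0.05, and 1 in ♂M-1 and 2 in ♂M-3 were lower than in ZM-1, Neurod1 in both (−0.86 and −1.23) and Elavl3 in ♂M-3 (−0.43). Their summed intensity ran from 3029 to 3375 over the 6 arrays, of which Stmn2 alone gave 2081 to 2481 and the other 12 together 895 to 954, and Dcx lay below the lower quartile in all of them. Among markers of other lineages, Dab2 alone of 6 for primitive endoderm was called, higher in ♂M-1 than in ♂M-3 (0.53). Tfap2c alone of 6 for trophectoderm was called, above ZM-1 in ♂M-1 (0.77) and ♂M-3 (0.84). The uncalled trophectoderm markers went both ways by the same 2 differences. Krt7 had −0.40 and −0.29, Cdx2 −0.082 and −0.15, and Hand1 −0.027 and −0.11. Eomes had 0.11 and 0.25, and Elf5 0.095 and 0.11. Of 4 blood markers, Lyz2 (−1.55) and Ptprc (−0.30) were lower in ♂M-3 than in ZM-1. Cd34 (−0.25) and Cd68 (0.11) were not called. The part of other cell types in the values of Ndn and Mkrn3 was not tested.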

How the data were processed

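Total RNA of 6 samples, 3 lines with 2 biological repeats each, had been hybridised to whole-transcript mouse arrays. The deposited values are linear intensity values, 1 per probe set and array, and the submitters' processing notes name GCOS 1.4. How background was corrected and arrays were normalized is not given in the sources used here. Array medians were 67.2 to 71.3, and no normalization was added. Precision is limited by the number of arrays.

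Of 35556 probe sets, 21789 carried 1 symbol, 1621 several and 12146 none in the platform's annotation, which gave 19938 genes. Values were used as log2 of the intensity plus 1. Limma 3.58.1 in R 4.3.3 fitted 1 mean per line to all 6 arrays, with 3 residual and 6.03 prior degrees of freedom. Tests of the 3 pairs were two-sided, and p-values were adjusted by the Benjamini-Hochberg method over all genes. Intervals are 95% and unadjusted. The fit was run on simulated data, with changes planted only in genes above the median level. All planted changes were larger than the called differences of Ndn and Mkrn3, so the simulation does not bear on those calls. A fold understates the change of dim genes, because of the pseudocount.

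The genes and lists were chosen with earlier results of these data known. Named were the region's genes, the called members of each list (the 4 largest differences at most per pair), a fixed group of relatives, partners and neighbours whatever their test, and the 3 nearest genes of each called member. Listed genes with no single-symbol probe set were not analysed here. The motifs were chosen after the promoters were read, the flanking genes after the first fit. Alternatives changed the pseudocount, normalization, filter, probe sets, variance prior, samples, replicate block and single arrays. For a pair, leaving out an array of the third line gave the same fit as only the 2 lines compared. Counts of alternatives therefore include repeated fits. Markers of primitive endoderm had 1 of 6 members called between the ♂M lines and by limma 0 against ZM-1 (2 in ♂M-1 and 1 in ♂M-3 at an unadjusted p under 0.05), those of trophectoderm 1 of 6 against ZM-1 in each ♂M line, and those of blood 2 of 4 in ♂M-3 against ZM-1.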

Additional observations from a re-analysis of the deposited data

How the results depend on the processing

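Repeats were few: the median difference between repeats was 0.080 to 0.097 log2 units, and all called differences of the 4 genes were under 0.5. Of the 10 differences that were not called, 5 changed sign in some alternative. Ndn in ♂M-3 against ZM-1 turned to 0.012 with median centring and ran from −0.11 to 0.077 over single arrays left out. Likewise Mkrn3 in ♂M-1 against ZM-1 ran from −0.095 to 0.13, Peg12 from −0.0099 to 0.14 in ♂M-1 and from −0.14 to 0.0087 in ♂M-3 against ZM-1, and Magel2 from −0.10 to 0.062 in ♂M-1 against ♂M-3. Both called differences and the other 5 that were not called kept their sign in every alternative in which they were fitted. Several alternatives, such as the variance prior and the replicate block, leave a difference unchanged and cannot alter its sign. The arrays of both called pairs did not overlap, so leaving out a single array could not reverse them either.

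The count of the 4 genes called in ♂M-1 against ZM-1 rose from 0 to 1 with a pseudocount of 16, median centring, the 25th or 50th percentile filter, or a variance trend with robust prior, and was 0 with each array left out. In ♂M-3 against ZM-1 it fell from 1 to 0 with a pseudocount of 16, all probe sets in the fit, only the 2 lines compared, the replicate block, and the 25th or 50th percentile filter, which leaves Mkrn3 out, and it was 0 to 1 over single arrays left out. In ♂M-1 against ♂M-3 it fell from 1 to 0 with all probe sets or the replicate block, rose to 2 with only the 2 lines compared, and was 0 to 2 over single arrays left out.

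Genes called in all numbered 882, 3162 and 1303 in these pairs. With all probe sets in the fit they were 275, 2027 and 442, and a variance trend with robust prior gave 1694 and 1997 in the first and last of them. Leaving out single arrays gave 235 to 633, 1301 to 2749 and 357 to 1495. Of the genes called in ♂M-1 against ZM-1, 42.9% were on the higher side, 56.5% after median centring, and between 24.7% (all probe sets) and 61.9% (genes above the 50th percentile) over all alternatives.

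The replicate block gave 686, 2768 and 1070 genes, and ended the calls of Ndn (adjusted p = 0.0610) and Mkrn3 (0.0616). Across genes, which are not independent replicates, the deviations of repeats of the same number correlated at 0.067, −0.10 and −0.035 between lines. Such values over all genes cannot exclude a pairing that acts on some genes, and the labels give a shared number only.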

Other observations

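The probe set annotated to both Snurf and Snrpn, whose RefSeq transcripts overlap, was no member by the rule and names neither gene. Its intensity was 831 and 809 in ZM-1, 730 and 840 in ♂M-1, and 709 and 697 in ♂M-3. The ♂M-3 arrays were below the other 4, and in the fit over all 35556 probe sets the log2 difference of ♂M-3 against ZM-1 was −0.22 (interval −0.44 to −0.00038, adjusted p = 0.208). For ♂M-1 against ZM-1 it was −0.066 (interval −0.29 to 0.16, adjusted p = 0.766).

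The probe set annotated to Ube3a and 3 other genes, from which no gene is named either, had an intensity of 388 and 367 in ZM-1, 416 and 427 in ♂M-1, and 518 and 448 in ♂M-3. The arrays of the 3 lines did not overlap. For single pairs of lines, arrays did not overlap in 48.9% to 57.5% of the 19938 genes. The share separated in all 3 pairs at once was not counted. In the same limma fit no pair passed the test. For ♂M-3 against ZM-1 the log2 difference was 0.35 (interval 0.12 to 0.58, adjusted p = 0.0909). In that fit over all probe sets, Mkrn3 in the same pair (adjusted p = 0.117) and Ndn in ♂M-1 against ♂M-3 (0.171) were not called either.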
